A study of Mus musculus with 12 samples.

Results

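The 10 genes described here encode the proteins that carry AICAR into a cell, phosphorylate it, or work on it and on AMP inside the cell: Slc29a1, Adk, Atic, Adsl, Ampd1, Ampd2, Ampd3, Adss, Adssl1 and Hprt. The rule that picks them uses names only: every probe set whose array annotation gives exactly one of these symbols. This gave 17 probe sets of 45101 on the array, of which 15 passed a filter on dim signal. All 10 genes were among the 12771 genes tested. None of the 10 was called as changed by AICAR, by GW1516 or by both drugs together. Adk, the kinase that turns AICAR into its active form, came closest: its mean signal was 1091 ± 130.3 (SD, n = 3 arrays) after GW1516 and 1536 ± 131 with vehicle.

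The arrays measured RNA of quadriceps muscle from C57Bl/6J mice given 1 of 4 treatments for 6 days. These were vehicle, AICAR (250 mg/kg/day), the agonist GW1516 (5 mg/kg/day), and the pair of drugs together. Each group had 3 arrays, and each array was hybridised with RNA pooled from 3 mice of that group. The labels do not state that the pools held different mice, and the p-values reflect only how these pools differ. No genotype other than the strain is stated, and the labels give no age or sex. The comparisons ask what each drug did to these genes, what the combination did, and whether the effect of AICAR differed when GW1516 was present.

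AICAR is a nucleoside that enters cells through nucleoside transporters, among them the equilibrative transporter encoded by Slc29a1. Adenosine kinase, the product of Adk, phosphorylates it to ZMP, which resembles AMP and activates the AMP-activated protein kinase. ZMP is also a normal intermediate of purine synthesis: adenylosuccinate lyase (Adsl) makes it and the bifunctional enzyme Atic uses it to form IMP. In skeletal muscle AMP and IMP are linked by the purine nucleotide cycle, in which AMP deaminase (Ampd1) converts AMP to IMP, adenylosuccinate synthetase (Adssl1) joins IMP to aspartate, and Adsl releases AMP and fumarate. GW1516 binds and activates PPARδ, a nuclear receptor whose muscle targets include many genes for burning fatty acids.

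Values are MAS5 signals, the array's linear brightness score, scaled to the same trimmed mean of 200 on every array. Differences are given on the log2 scale, where 1 is a doubling, with the standard error (SE) and 95% confidence interval of the limma fit. All 7 markers of skeletal muscle fibres passed the filter, and their median on each array stood between -0.04 and 0.37 from the vehicle mean on the log2 scale. Single markers could vary more: Myh2 ran from 1060 to 11654 and Mb from 5816 to 16519, while Acta1 ran from 24274 to 32681. Correlations between pairs of arrays ranged from 0.947 to 0.968. GW1516 replicate 2 stood apart from the other 11 arrays: the median of 12 muscle atrophy genes was 1.34 above the vehicle mean on it and at most 0.33 above on any other array, and the median of 6 fibroblast markers stood at -1.43. Where leaving this array out turned the sign of a gene's difference between GW1516 and vehicle, or moved it by over 1.5 times, the value without it is given. These values are for the probe set through which the gene was tested.

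Adk has more than 1 annotated start in mouse, and the windows of 250 bases before its starts are shown first because Adk is the member whose values stood closest to the threshold. Adssl1 is shown beside it, because it was the other member with an unadjusted p under 0.05 in any comparison. The sequences are those of RefSeq on GRCm38.p6, all on the plus strand. Capitals mark a match to AGGTCA, which is only part of the site bound by PPARs and is shared with other nuclear receptors.
Adk, chr14:21052324-21052573: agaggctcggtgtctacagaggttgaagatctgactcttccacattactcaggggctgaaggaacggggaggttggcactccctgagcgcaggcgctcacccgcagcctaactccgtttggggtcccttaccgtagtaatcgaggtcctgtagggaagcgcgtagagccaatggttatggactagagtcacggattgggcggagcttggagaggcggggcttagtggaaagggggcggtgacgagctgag
Adk, chr14:21075902-21076151: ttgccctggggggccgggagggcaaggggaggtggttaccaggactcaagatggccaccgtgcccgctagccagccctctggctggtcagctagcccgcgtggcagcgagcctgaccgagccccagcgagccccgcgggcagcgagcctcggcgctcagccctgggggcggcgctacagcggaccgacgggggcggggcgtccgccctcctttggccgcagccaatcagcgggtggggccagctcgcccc
Adssl1, chr12:112619797-112620046: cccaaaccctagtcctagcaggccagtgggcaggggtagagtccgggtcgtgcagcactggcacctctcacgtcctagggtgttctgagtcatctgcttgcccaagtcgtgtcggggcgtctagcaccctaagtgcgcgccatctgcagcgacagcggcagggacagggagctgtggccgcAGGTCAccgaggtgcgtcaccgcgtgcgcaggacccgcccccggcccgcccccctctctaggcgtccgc
The Adk windows had 58.8% and 75.2% G or C, with 15 and 24 CG dinucleotides, against medians of 52.4% and 6 over all 32851 windows of this length. Neither Adk window held AGGTCA or CACGTG, the E-box letters, on either strand. The Adssl1 window held AGGTCA 1 time and no CACGTG. In all, 9 of the 10 genes matched the promoter table, with 20 windows, of which 3 held AGGTCA and 3 held CACGTG. Some genes had several windows, Slc29a1 the most. AGGTCA was only in windows of Adssl1 and Slc29a1, and CACGTG only in windows of Atic, Ampd3 and Slc29a1. Over all windows, 14.02% held AGGTCA and 6.021% held CACGTG. A match is a run of letters and does not show binding.

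Slc29a1 encodes the equilibrative nucleoside transporter that admits adenosine and AICAR. Its signal was 417, 453 and 385 on the vehicle arrays and 452, 442 and 435 on the AICAR arrays. After GW1516 it was 423, 527 and 509, and after both drugs 436, 457 and 408. All 3 treated groups overlapped with vehicle, although GW1516 replicates 2 and 3 were above every other array. The difference from vehicle was 0.09 for AICAR, 0.21 for GW1516 and 0.05 for both drugs (SE 0.11), with an interval of -0.02 to 0.45 for GW1516 and an adjusted p of 0.54. In bulk muscle, fewer cells of a type and less RNA per cell cannot be told apart, which holds for every gene below.

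Adk had 6 probe sets, and the brightest, an x_at probe set, represented the gene in the test. Its signal was 1556, 1656 and 1396 with vehicle, and 1112, 1356 and 1497 with AICAR. It was 1241, 1026 and 1007 with GW1516, and 1569.9, 1291 and 1599 with both drugs. All 3 GW1516 arrays were below all 3 vehicle arrays, whereas AICAR and the combination overlapped with vehicle. The group means were, from highest to lowest, vehicle 1536 ± 131, both drugs 1487 ± 170.2, AICAR 1321 ± 195 and GW1516 1091 ± 130.3 (SD, n = 3), and each neighbouring pair in this order overlapped.

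The difference between GW1516 and vehicle in Adk was -0.50 (SE 0.13, interval -0.77 to -0.23), or 0.709-fold. Its unadjusted p was 0.0015, and after adjustment over all genes limma gave 0.252, so the gene was not called. Without GW1516 replicate 2 the difference was -0.45, with an adjusted p of 0.508. AICAR alone differed from vehicle by -0.22 (interval -0.49 to 0.05), and both drugs together by -0.05 (interval -0.32 to 0.22).

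With both drugs the Adk signal was higher than with GW1516 alone by 0.45 (interval 0.18 to 0.72, unadjusted p = 0.0032, adjusted p = 0.296), and all 3 combination arrays were above all 3 GW1516 arrays. The interaction is the AICAR effect in the presence of GW1516 minus the AICAR effect in its absence. For Adk it was 0.67 (SE 0.18, interval 0.29 to 1.05). Its unadjusted p was 0.00207 and its adjusted p 0.703. In the F test over the 4 groups Adk had the smallest p of the 10 genes, 0.0061, which ranked 235 of 12771 and gave an adjusted p of 0.33.

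The second brightest Adk probe set gave another pattern for the combination. It read 790.4, 733 and 646 with vehicle, and 430.4, 563 and 550.1 with AICAR. With GW1516 it read 626, 453 and 446, and with both drugs 613, 498 and 491. All 9 treated arrays were below all 3 vehicle arrays, a feature singled out after the values were seen. Of the 22714 probe sets tested, 346 (1.52%) had this property. The differences from vehicle were -0.50 for AICAR, -0.52 for GW1516 and -0.44 for both drugs (SE 0.15), with unadjusted p-values of 0.0056, 0.0040 and 0.012. Adjusted over all probe sets by limma they were 0.476, 0.35 and 0.292, so this probe set was not called either. With both drugs it read higher than with GW1516 alone by only 0.08 (interval -0.24 to 0.41), and these groups overlapped.

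Both Adk probe sets were therefore lower than vehicle by about the same amount after GW1516, and they differed on the combination, where the brightest stood at -0.05 and the second at -0.44. Over the 12 arrays, which share their 4 treatments, the log2 signals of the pair had a correlation of 0.72. The x in the name of the brightest marks a probe set with probes that can match more than 1 transcript, so part of its signal may not be Adk. Of the dimmer Adk probe sets past the filter, one ranged from 59.3 to 119 and another from 7.35 to 63.3, and each overlapped with vehicle in every treated group. The remaining pair of Adk probe sets did not pass the filter.

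**Figure D1:**
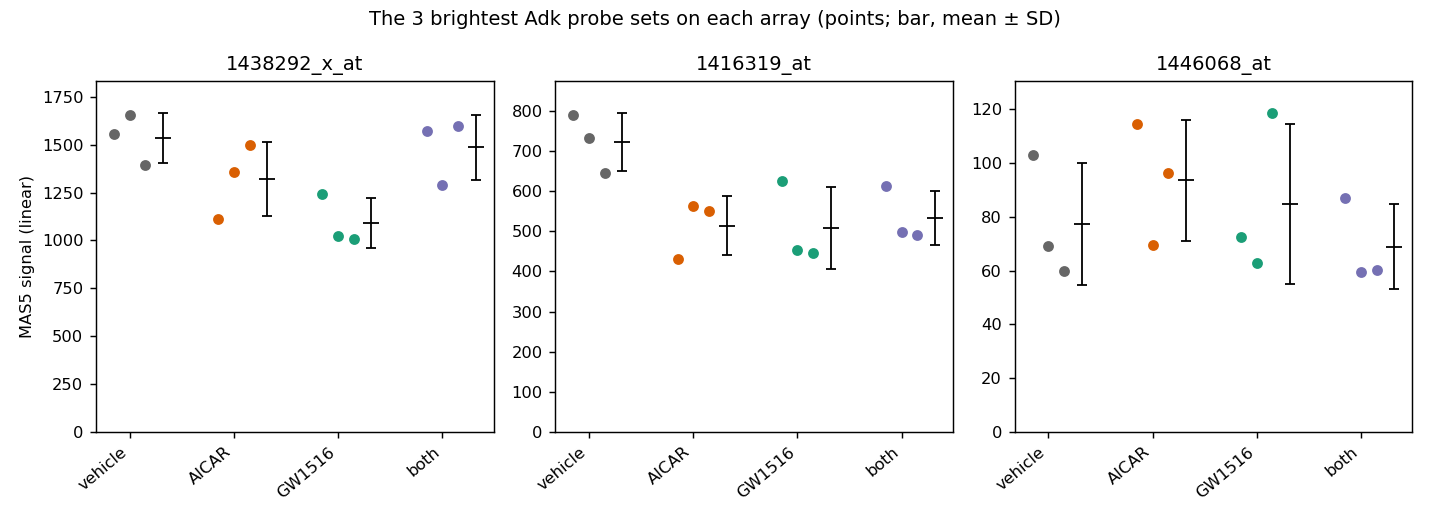
Linear MAS5 signal (vertical axis) of the 3 brightest Adk probe sets on each array (points) by treatment, with the mean and SD of 3 arrays (bars). On the left, in the brightest, only the GW1516 group lies wholly below vehicle; in the middle, in the second, all 9 treated arrays do; on the right the groups overlap.

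Atic, which uses ZMP and so removes the phosphorylated drug, had a signal of 625, 676 and 747 with vehicle. It had 839, 712 and 755 with AICAR, 697, 725 and 759 with GW1516, and 701, 739.7 and 937 with both drugs. All 3 treated groups overlapped with vehicle. The differences were 0.17, 0.09 and 0.21 in that order (SE 0.12), with an interval of -0.04 to 0.45 for the combination. A second Atic probe set ranged from 155 to 245 and gave differences of -0.08, 0.05 and -0.21, so the pair had opposite signs for AICAR and for the combination.

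Adsl, the lyase that acts in both purine synthesis and the purine nucleotide cycle, had a signal of 1068, 1112 and 994 with vehicle and 1043, 1091 and 1041 with AICAR. GW1516 arrays read 1162, 1234 and 1076, and combination arrays 1253, 1015 and 1111. The groups overlapped throughout. The difference for AICAR was 0.00 (interval -0.20 to 0.20), for GW1516 0.13 and for both drugs 0.09 (SE 0.092). The GW1516 value was 0.08 without replicate 2.

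**Figure D2:**
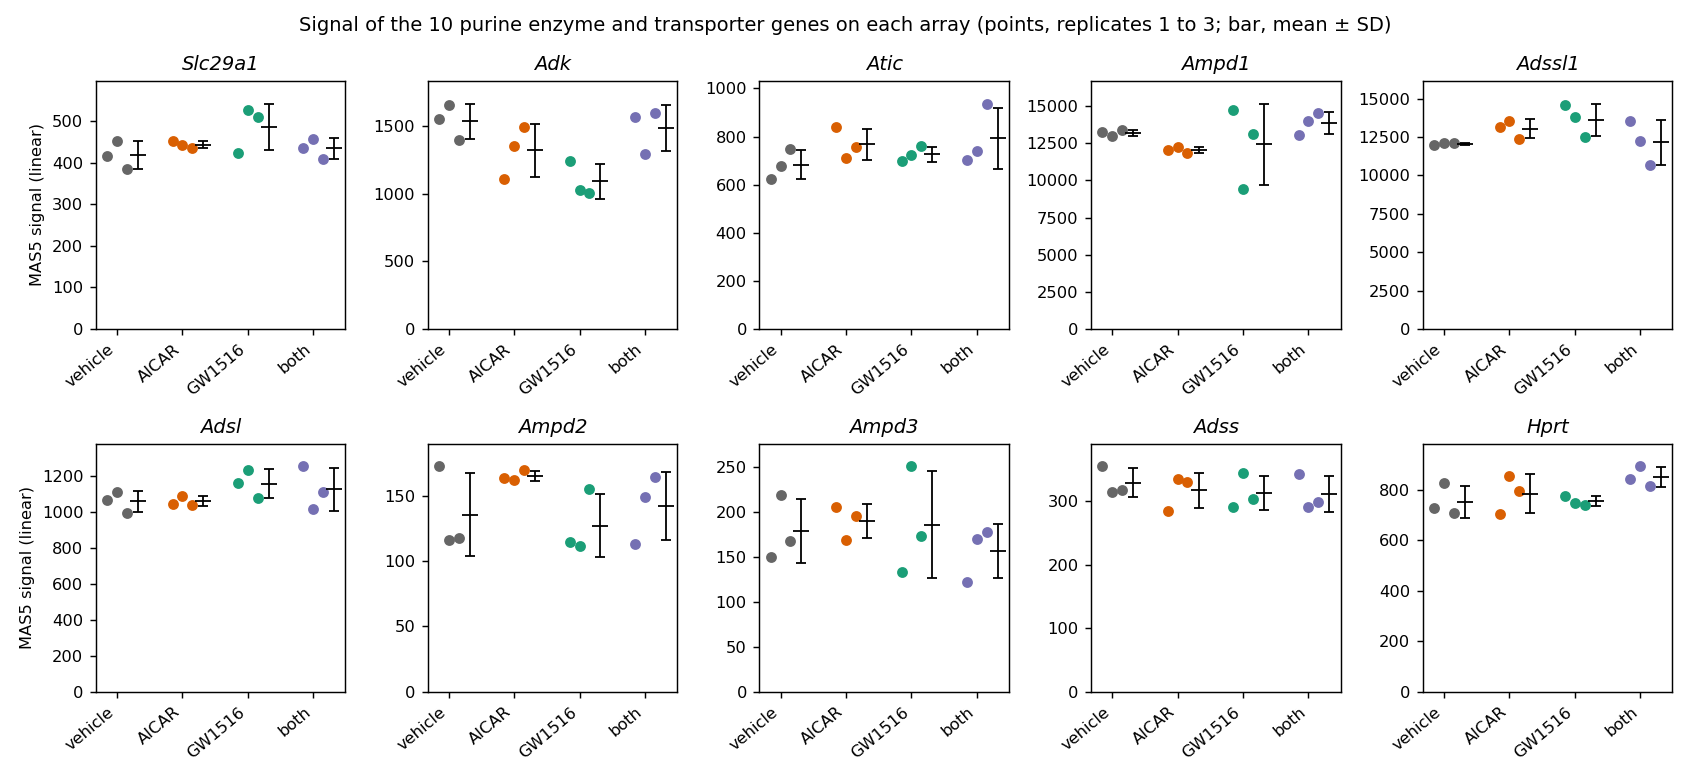
Linear MAS5 signal (vertical axes, from 0) of the 10 genes on each of the 12 arrays, by treatment; points are arrays and bars are the mean and SD of 3 arrays. Adk is lowest with GW1516, at 1007 to 1241, and the Ampd1 array at 9421 is GW1516 replicate 2.

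Ampd1 encodes the AMP deaminase of skeletal muscle. Its signal was 13265, 12989 and 13375 with vehicle and 12051, 12268 and 11842 with AICAR. It was 14761, 9421 and 13125 with GW1516, and 13072, 14000.3 and 14531 with both drugs. All 3 AICAR arrays were below all 3 vehicle arrays, by a mean of -0.13 on the log2 scale (SE 0.12, interval -0.39 to 0.13, adjusted p = 0.858). The spread in this fit is shared by the 4 groups, and the GW1516 arrays were the most spread, with an SD of 2736 against 199 for vehicle and 213 for AICAR.

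GW1516 replicate 2 decided the Ampd1 value for GW1516: the difference from vehicle was -0.11 with it and 0.08 without it. When it was left out, the AICAR difference stayed at -0.13 with an SE of 0.059 (interval -0.26 to -0.0042, unadjusted p = 0.0438, adjusted p = 0.518). The effect of GW1516 averaged over arrays with and without AICAR was then 0.14 (unadjusted p = 0.0082, adjusted p = 0.352), against 0.04 with all arrays. Markers of the muscle fibre, the cell that holds Ampd1, had medians on the combination arrays of 0.18, 0.22 and 0.29 above vehicle, where Ampd1 stood at -0.01, 0.08 and 0.14. Their part in the Ampd1 values was not tested.

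Adssl1, the synthetase isoform of muscle that takes IMP back toward AMP, had a signal of 11989.6, 12116 and 12095 with vehicle. It was 13177, 13571 and 12383 with AICAR and 14574, 13836 and 12505 with GW1516. With both drugs it was 13563, 12242 and 10663. Every array of either single drug was above every vehicle array, while the combination arrays lay on both sides of vehicle. The differences were 0.11 for AICAR (interval -0.08 to 0.30), 0.17 for GW1516 (interval -0.02 to 0.36) and 0.00 for both drugs (interval -0.19 to 0.19), and the smallest adjusted p was 0.547. The interaction was -0.28 (SE 0.13, unadjusted p = 0.0418, adjusted p = 0.746). Median centring of the arrays moved the AICAR difference to -0.01.

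Of the cycle's 3 enzymes none passed the test in any contrast. Side by side, the AICAR differences of Ampd1, Adssl1 and Adsl were -0.13, 0.11 and 0.00, and with median centring -0.25, -0.01 and -0.12. Their GW1516 differences were -0.11, 0.17 and 0.13, and without GW1516 replicate 2 they were 0.08, 0.16 and 0.08.

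Ampd2 and Ampd3 encode the AMP deaminases found mainly in liver and in red cells. Ampd2 read 173, 117 and 118 with vehicle, and 164, 162 and 169.9 with AICAR. With GW1516 it read 115, 112 and 155, and with both drugs 113, 149 and 165. The AICAR arrays lay within the range of the vehicle arrays. Its AICAR difference of 0.31 was the largest among the 10 genes for that drug, but its interval ran from -0.13 to 0.74 and the adjusted p was 0.788. The GW1516 difference was -0.08, and 0.0014 without GW1516 replicate 2. The difference for both drugs was 0.08. A second Ampd2 probe set ranged from 61.6 to 128 and gave 0.09 for AICAR, -0.19 for GW1516 and -0.26 for both drugs. The pair thus had opposite signs for the combination.

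Ampd3 read 149.7, 218 and 168 with vehicle, 205, 169 and 195 with AICAR, 133, 251 and 174 with GW1516, and 122, 170.2 and 177 with both drugs. The groups overlapped, and the highest value was on GW1516 replicate 2. The difference for GW1516 was 0.03 (SE 0.23), and -0.21 without that array. Of 8 red cell markers 4 had a probe set and 2 passed the filter, and the haemoglobin genes were not among them. The signal summed over all 4, the dim ones included, was 90.6 to 166 on vehicle arrays and 152 to 211 on AICAR arrays. It was 95.7 to 125 on GW1516 arrays and 183 to 228 on combination arrays. The log2 median of the 2 past the filter overlapped between vehicle and combination. From the vehicle mean it stood at 0.77, -0.70 and -0.07 on vehicle arrays and 0.80, 0.36 and 0.80 on AICAR arrays. It was 0.36, -0.25 and -0.45 on GW1516 arrays and -0.47, 0.06 and 0.75 on combination arrays. The part of red cells in the Ampd3 values was not tested.

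**Figure D3:**
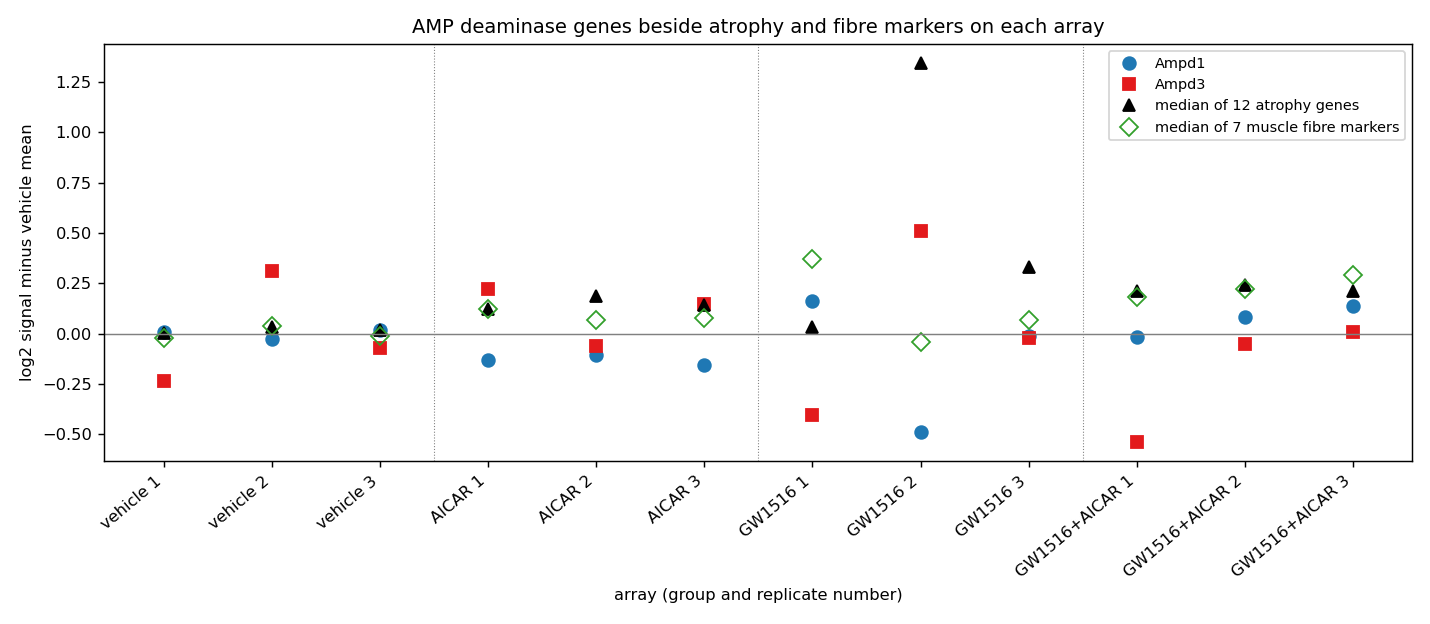
Log2 signal minus the vehicle mean (vertical axis) of Ampd1, Ampd3, the median of 12 atrophy genes and the median of 7 muscle fibre markers on each of the 12 arrays. On GW1516 replicate 2 the atrophy median is 1.34, Ampd3 is 0.51 and Ampd1 is -0.49.

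On GW1516 replicate 2, Ampd3 stood 0.51 above the vehicle mean and Ampd1 at -0.49. The atrophy genes, which include the ubiquitin ligases Fbxo32 and Trim63, had their highest median on the same array, and their summed signal there was 43629 against 12488 to 12786 on vehicle arrays. Their part in the values of Ampd1 and Ampd3 was not tested. Over the 12 arrays Ampd1 and Ampd3 had a correlation of -0.68, which describes arrays that share treatments and this 1 array.

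Adss, the synthetase isoform found in most tissues, had a signal of 355, 315 and 318 with vehicle, 285, 336 and 331 with AICAR, 292, 344 and 304 with GW1516, and 344, 292 and 298 with both drugs. The groups overlapped. It had the smallest F value of the 10 genes, with differences from vehicle of -0.06, -0.07 and -0.08 (SE 0.12). Leaving out GW1516 replicate 2 moved the second of these to -0.14.

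Hprt, which salvages hypoxanthine to IMP, had a signal of 726, 825 and 707 with vehicle and 701, 856 and 793 with AICAR. It was 776, 748 and 739.6 with GW1516 and 843, 892 and 814 with both drugs. The combination arrays were high, but the lowest of them was below the highest vehicle array. The difference for both drugs was 0.18 (interval -0.03 to 0.38, adjusted p = 0.519), and those for AICAR and GW1516 were 0.06 and 0.01. With median centring the AICAR value was -0.06. As scaled by the authors, the GW1516 value was 0.0071 with all arrays and 0.014 without replicate 2.

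Across the 10 genes, limma called 0 in each of the 8 contrasts and 0 in the F test. The background was also low: 0.00783% of all genes were called for AICAR, 0.094% for GW1516 and 0.258% for both drugs against vehicle. For the combination it was 0.0313% against AICAR and 0% against GW1516. For the averaged effects it was 0.0313% for AICAR and 0.149% for GW1516, for the interaction 0% and for the F test 0.11%. A count of 0 among 10 genes is near these shares and is no result about the 10.

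At an unadjusted p under 0.05, the counts among the 10 were 0 for AICAR, 1 for GW1516 (Adk) and 0 for both drugs against vehicle. The background at this threshold was 6.93%, 9.64% and 10.9% of all genes. Between treatments the count was 0 for the combination against AICAR and 1, Adk, for the combination against GW1516, where the background was 7.32% and 10.4%. It was 0 for each averaged effect (background 10.4% for AICAR and 9.51% for GW1516), 2 for the interaction (Adk and Adssl1, background 6.64%) and 1 for the F test (Adk, background 10.4%).

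Counted by arrays that did not overlap with vehicle, 2 of the 10 genes stood apart with AICAR (Adssl1 above and Ampd1 below), 2 with GW1516 (Adssl1 above and Adk below) and 0 with both drugs. The share among all genes was 18.3%, 14.2% and 18.6%, so the counts with the single drugs were near the background.

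The precision allowed bounds on the size of a change. The 95% interval lay within 1.5-fold in either direction for 8 of the 10 genes with AICAR, for 9 with GW1516 and for 9 with both drugs against vehicle. It lay within 2-fold for all 10 in these 3 comparisons. The exceptions to 1.5-fold were Ampd2 and Ampd3 with AICAR, Adk with GW1516 and Ampd3 with both drugs. These bounds hold only for the probe set through which each gene was tested and for the authors' scaling. With median centring, for example, the AICAR difference of Adk was -0.34 in place of -0.22. The second Adk probe set passed 1.5-fold, at -0.82 to -0.17 for AICAR and -0.77 to -0.11 for both drugs. So did the second Ampd2 probe set, at -0.77 to 0.39 for GW1516 and -0.84 to 0.32 for both drugs. A dim Adk probe set passed 2-fold, at -1.27 to 1.83 for AICAR. The median size of the difference was 0.107 among the 10 and 0.144 among all genes for AICAR, 0.103 and 0.165 for GW1516, and 0.080 and 0.168 for both drugs. The median SE was likewise smaller among the 10, at 0.12 against 0.19.

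**Figure D4:**
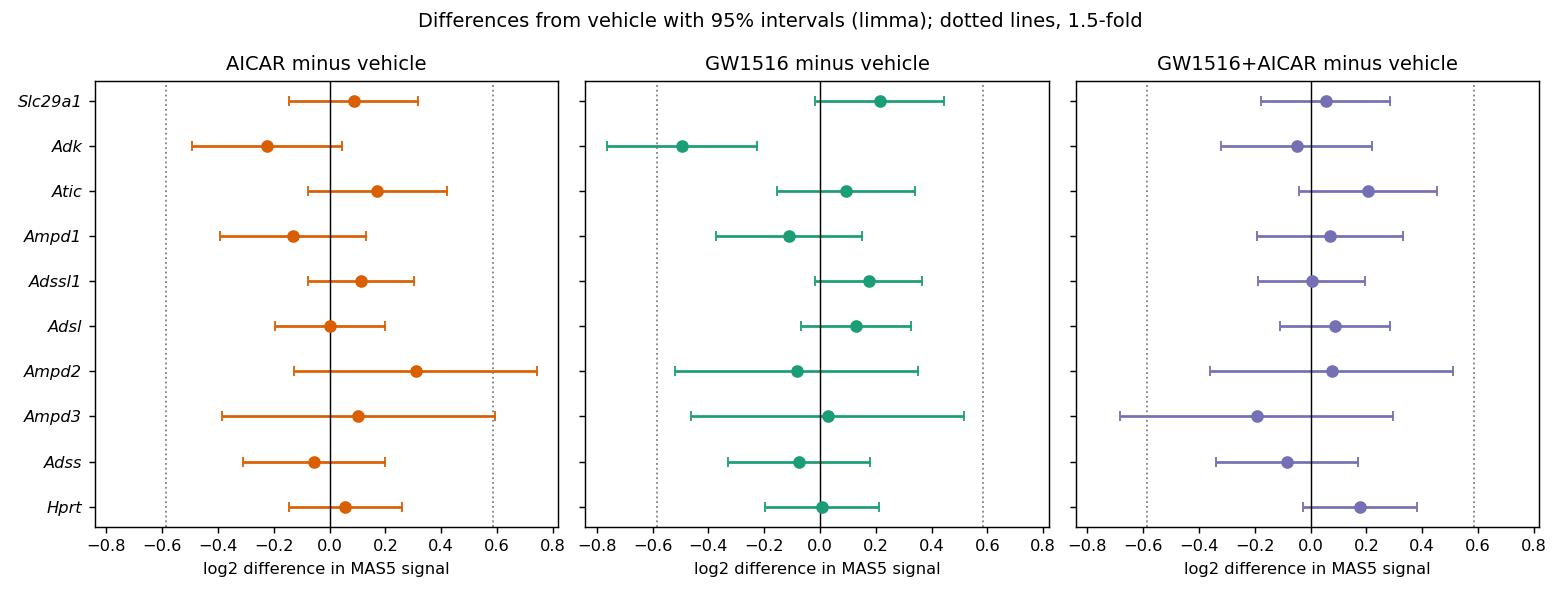
Log2 difference from vehicle (horizontal axis) of the 10 genes in the 3 treated groups, with 95% limma intervals (bars) and dotted lines at 1.5-fold. Of the 30 intervals, only that of Adk with GW1516 does not cross 0.

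The rest of purine metabolism was read from 8 lists of 83 genes, of which 61 were tested. With all 12 arrays, none of the 61 was called in any contrast. At an unadjusted p under 0.05 there were 4 for AICAR (6.56%), 7 for GW1516 (11.5%) and 7 for both drugs (11.5%) against vehicle, close to the shares of all genes above. Their median differences were -0.02, -0.02 and 0.06, with 26, 24 and 37 of 61 above 0. By rule, the pair of genes with the smallest F test p is named for each list.

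Xdh, which encodes the oxidase that forms uric acid, had the smallest p among them. It read 239, 209 and 238 with vehicle, and 288, 352 and 435 with AICAR. It read 244, 468 and 343 with GW1516, and 569.8, 396 and 368 with both drugs. Every treated array was above every vehicle array, as in 1.08% of all genes tested. The differences were 0.63, 0.57 and 0.93 (SE 0.22), and the adjusted p for both drugs was 0.13. Without GW1516 replicate 2, the highest GW1516 array, the GW1516 difference was 0.34. In that fit the difference for both drugs stayed at 0.93, with a limma adjusted p of 0.0399. This was under the threshold, as for 95 of all genes in that fit. Adipocyte markers varied within every group, with medians of 0.48, -0.49 and -0.16 on the vehicle arrays and -0.03, 1.08 and 1.79 on the AICAR arrays. They were 0.65, -0.0052 and 1.29 on the GW1516 arrays and 1.55, 0.57 and -0.08 on the combination arrays, and endothelial markers stayed between -0.22 and 0.18 on every array. Their part in the Xdh values was not tested. In the same breakdown list, Uox, the next enzyme on uric acid, was dim, at 13.1 to 65.7, with a GW1516 difference of -1.21 (adjusted p = 0.436).

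Pnp, the phosphorylase that splits purine nucleosides, read 226, 201 and 228 with vehicle, and 296, 296 and 317 with AICAR. With GW1516 it read 229, 250.4 and 322, and with both drugs 312, 257 and 282. Each treated array was above the vehicle arrays, the lowest of them by less than 1 unit of signal. The differences were 0.47, 0.28 and 0.37 (SE 0.14), with adjusted p-values of 0.477, 0.539 and 0.337. Mtap, its partner in the salvage list, stood at -0.10, -0.25 and 0.08, with -0.12 for GW1516 when replicate 2 was left out.

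In purine synthesis, Paics, whose product makes the substrate of Adsl, stood at -0.08, -0.01 and -0.18 for AICAR, GW1516 and both drugs. Prps2, which supplies the activated ribose, stood at 0.50, -0.04 and 0.45, and its 3 probe sets disagreed in sign. The GW1516 values of Paics and Prps2 were 0.0026 and 0.0025 without replicate 2. In the guanine branch, Guk1 read 575, 579 and 592 with GW1516 against 474, 463 and 508 with vehicle, a difference of 0.27 (adjusted p = 0.416). Impdh1 stood at -0.22, 0.01 and 0.02, with 0.0041 for GW1516 when replicate 2 was left out.

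Among phosphate transfer enzymes, the muscle creatine kinase Ckm stood at 0.08, 0.15 and 0.26, and the adenylate kinase Ak1 at -0.08, -0.09 and 0.11. The sign of Ak1 with GW1516 rests on replicate 2, which read 8284 against 11121 and 11496, and without it the difference was 0.06. Ckm is also 1 of the 7 fibre markers. Of the genes that supply aspartate to the purine nucleotide cycle or link to it, the transaminase Gpt2 stood at 0.07, 0.24 and 0.27 and Got2 at -0.14, -0.21 and -0.03. The GW1516 arrays did not overlap with vehicle for either gene, above for Gpt2 and below for Got2, with an adjusted p of 0.436 for each. Other Gpt2 probe sets gave smaller GW1516 differences, of 0.17, 0.0019 and 0.06.

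The transporter relatives Slc29a2 and Slc29a3 stood at 0.16, -0.06 and 0.35, and at 0.26, 0.02 and -0.00. The folate enzymes Mthfd1 and Shmt1, which supply the one-carbon groups used by Atic, stood at -0.19, -0.23 and -0.11, and at 0.10, 0.05 and 0.41. Without GW1516 replicate 2 the GW1516 values were 0.02 for Slc29a2, 0.07 for Slc29a3, -0.11 for Mthfd1 and 0.18 for Shmt1. Other probe sets of Mtap, Ckm, Ak1, Got2, Slc29a2, Mthfd1 and Shmt1 differed in sign from the one given here for at least 1 treatment.

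**Figure D5:**
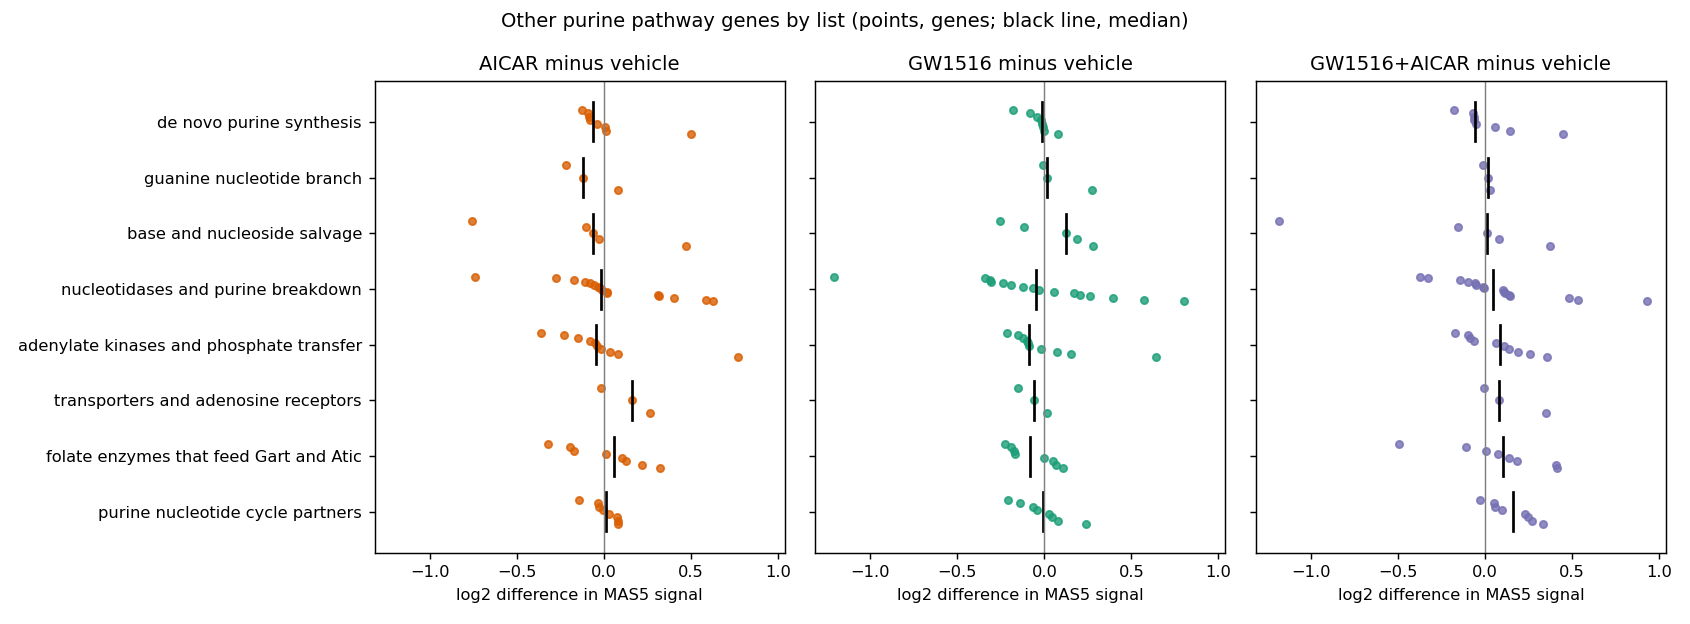
Log2 difference from vehicle (horizontal axis) of the 61 tested genes of 8 purine lists in the 3 treated groups; points are genes and black lines are list medians. The point at -1.21 with GW1516 is Uox and the one at 0.93 with both drugs is Xdh.

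The genes whose log2 signal followed that of a member most closely over the 12 arrays were named for the 3 members of smallest F test p. For Adk they were Wfs1 (Pearson r = 0.941), Tlcd3b (0.932) and Vapb (0.891), and 0.423% of all genes had r above 0.8. Dnajc1 (0.871), Snrpg (0.867) and Sgf29 (0.848) were nearest to Adssl1, and Epas1 (0.870), Pcdhb5 (0.867) and Mastl (0.862) to Hprt. Among the members themselves the strongest relation was between Adk and Slc29a1, at r = -0.70. These are descriptions of 12 arrays that share treatments and scaling.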

How the data were processed

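RNA from quadriceps was measured on 12 Affymetrix mouse arrays, 3 for each of 4 groups. The authors deposited 1 linear intensity value per probe set, made with MAS5 per the submitters' processing notes, with no version stated there. Each array's mean was 200 after trimming 2% at each end. MAS5 subtracts mismatch probes, which makes dim signals noisy, and the scaling makes every value relative to the rest of its array.

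The array had 45101 probe sets, 64 of them controls and not used. Of the others, 34945 had 1 gene symbol, 932 had several and 9160 were unnamed here. Signals were floored at 1 (3531 of 540444 values) and log2 was taken. The lowest 40% of probe sets, below a signal of 28.2, were left out. Each gene was tested through its brightest probe set, which gave 12771 genes. Group means were fitted to all 12 arrays with limma 3.58.1 in R 4.3.3, with moderated variances following a trend on signal (8 residual and 5.91 prior degrees of freedom), two-sided tests and Benjamini-Hochberg adjustment over all genes. The threshold for a call was 0.05 after adjustment. With 3 arrays a group, the median SE of a difference was 0.19 for all genes, which sets the precision. All members were named, and of each purine list the pair with the smallest F test p. The rule for members uses no measured value, but members, lists and tests were chosen with earlier results of these data known. The alternatives were quantile normalization, median centring, log2 of signal plus 32, no filter or a 60% filter, averaging the probe sets of a gene or testing each, variances without the trend, robust variances, array weights, only the groups compared, the replicate number as a block, and each array left out. Promoter windows are RefSeq's on GRCm38.p6. The code was tested on simulated data. Plots used matplotlib 3.10.9 and Python 3.11.15.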

Additional observations from a re-analysis of the deposited data

Results flagged for a closer look

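In 4 of the 10 genes every AICAR array stood on one side of the vehicle mean. In the same genes every combination array stood on the opposite side of the GW1516 mean. The effect of AICAR thus had opposite signs without and with GW1516. The share of all genes that meet this rule was not counted, so the count is no result about the 10. In Adk the AICAR effect was -0.22 without GW1516 and 0.45 with it, an interaction of 0.67 (SE 0.18, unadjusted p = 0.00207, limma adjusted p = 0.703). These are values of the brightest probe set. The second Adk probe set gave -0.50 and 0.08, and its combination arrays overlapped with its GW1516 arrays. Its interaction was 0.58 (limma unadjusted p = 0.0176, adjusted p = 0.759 over all probe sets). In Adssl1 the AICAR effect was 0.11 and -0.17, an interaction of -0.28 (unadjusted p = 0.0418, adjusted p = 0.746). In Ampd1 it was -0.13 and 0.18, an interaction of 0.31 (SE 0.17, unadjusted p = 0.0904, adjusted p = 0.76). Without GW1516 replicate 2 the Ampd1 effect with GW1516 was -0.0066 and the interaction 0.13, so its opposite signs were lost. The mean effects of 3 of the 4 genes kept opposite signs when that array was left out. In Adssl1, however, combination replicate 1 (0.169 above the vehicle mean) then lay above the GW1516 mean (0.162), so not every array met the rule. In Slc29a1 the AICAR effect with all arrays was 0.09 and -0.16, an interaction of -0.25 (unadjusted p = 0.129, adjusted p = 0.772). Median centring moved the AICAR difference from vehicle to -0.01 in Adssl1 and -0.03 in Slc29a1. In both genes the combination still stood below GW1516, at -0.07 against 0.21 in Adssl1 and -0.02 against 0.25 in Slc29a1. The opposite signs of Adssl1 and Slc29a1 were thus lost with this scaling. None of the 4 interactions passed the adjusted threshold, and 0 of 12771 genes did. Groups of 3 arrays were not searched for single outlying values.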

How the results depend on the processing

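No member was called in any of the 8 contrasts or the F test under any alternative run: 24 for contrasts between groups, and 23 for averages, the interaction and the F test. For Adk the smallest adjusted p was 0.0749 for GW1516 against vehicle, 0.0995 for the combination against GW1516 and 0.176 for the interaction, each without GW1516 replicate 1. With the mean of its probe sets the Adk difference for AICAR was -0.04 in place of -0.22, and its interaction 0.43 in place of 0.67 (adjusted p = 0.809). For the second Adk probe set the smallest adjusted p was 0.174, 0.0815 and 0.156 for AICAR, GW1516 and both drugs. Over all genes the counts called ranged from 0 to 28 for AICAR, 0 to 41 for GW1516 and 2 to 95 for both drugs against vehicle. They ranged from 1 to 10 for the combination against AICAR, 0 to 10 against GW1516, 0 to 120 for the averaged AICAR effect, 7 to 36 for the averaged GW1516 effect and 0 to 45 for the F test, and were 0 for the interaction throughout. Without the variance trend, GW1516, both drugs and the F test gave 0, 2 and 0. The 41 came without GW1516 replicate 1, the 95 without GW1516 replicate 2 and the 120 with median centring. For Ampd1 with AICAR the smallest adjusted p was 0.195, in a fit of the groups compared alone. For Atic with both drugs the mean of its probe sets gave -0.0011 in place of 0.21. Median centring moved the median AICAR difference of all genes to -0.11, and with it the AICAR differences of Adsl, Ampd3, Adssl1, Hprt and Slc29a1, and of the listed genes Guk1, Ckm, Shmt1 and Gpt2, to below 0. For both drugs it did so for Ampd1, Ampd2, Adssl1, Slc29a1 and Impdh1, and for GW1516 it moved Paics to 0.03. After each group's mean was subtracted, same-numbered arrays had correlations of -0.11 to 0.07 in 18 pairs. With so few arrays in a group, these values cannot decide whether the replicate numbers mark a pairing or a batch. With the replicate block, 0 members and 11 genes were called for GW1516 against vehicle, and 0 members and 16 genes for both drugs.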
